A study of Mus musculus with 4 samples.

Results

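Adrenergic receptors and the 2 monoamine oxidases were followed through every probe set that carries the symbol Adra1a, Adra1b, Adra1d, Adra2a, Adra2c, Adrb1, Maoa or Maob in the table of comparisons deposited by the authors. These symbols picked 14 of the 45101 probe sets, for 7 of the 8 listed genes. Adra1d was not analysed here. The series measured messenger RNA by Affymetrix array in cerebral cortex of female mice of the inbred strain C57BL/6J at 90 days of age. The arrays titled nicotine and the arrays titled saccharin, 2 each and numbered 1 and 2, stand for offspring whose dams drank nicotine or the sweetener saccharin from conception, with exposure stopped at day 21. All groups were then left untreated, and each RNA sample pooled 4 animals. Titles and source names disagree on the exposure of every array, so every direction here is by title, as titled nicotine minus titled saccharin, and every sign turns if the source names are right. The labels do not say that the arrays of one title hold RNA of different animals, so p-values reflect array-to-array spread that may be technical only.

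Noradrenaline reaches the cortex from neurons whose cell bodies lie in the brainstem, mainly in the locus coeruleus, and acts there on receptors of the alpha 1, alpha 2 and beta families. Alpha 1 receptors couple through Gq to phospholipase C, alpha 2 receptors through Gi to lower cyclic AMP, and beta receptors through Gs to raise it. Monoamine oxidases A and B, on the outer mitochondrial membrane, oxidise noradrenaline, serotonin and dopamine once they have been taken back into cells, with type A preferring serotonin and noradrenaline. In the brain, type A is found mainly in catecholamine neurons and type B mainly in astrocytes and serotonin neurons.

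No member passed the test between the titles. Adra2a at its brightest probe set was the only member probe set whose groups of arrays did not overlap, lower on both arrays titled nicotine, and Maob was the only one higher in titled nicotine within both array numbers. In limma, fitted over all probe sets, 0 of the 14 member probe sets had an adjusted p under 0.05, where 0.00222% of all probe sets did. At an unadjusted p under 0.05 the count was also 0 of 14, against 0.769% of all probe sets. Non-overlapping groups with titled nicotine lower were found in 1 of 14 member probe sets (7.14%), against 3.64% of all probe sets, and with titled nicotine higher in 0 of 14, against 1.73%. The median difference was -0.017 log2 over the 14 member probe sets and 0 over all probe sets. The exact two-sided permutation test of 2 arrays against 2 cannot give a p below 0.333.

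Of the 14 probe sets, 4 held a single value on all 4 arrays and 2 took only 2 distinct values, so 8 carried the measurements described below. The deposited unit is log2 expression, 1 value for each probe set and array, and the arrays share a lowest value of 2.10, at which no signal above background can be read. Of the members, 2 probe sets were at that value on all arrays, as were 23.4% of all probe sets. A level is compared only within a probe set, because probe sets differ in how brightly they report.

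**Figure D1:**
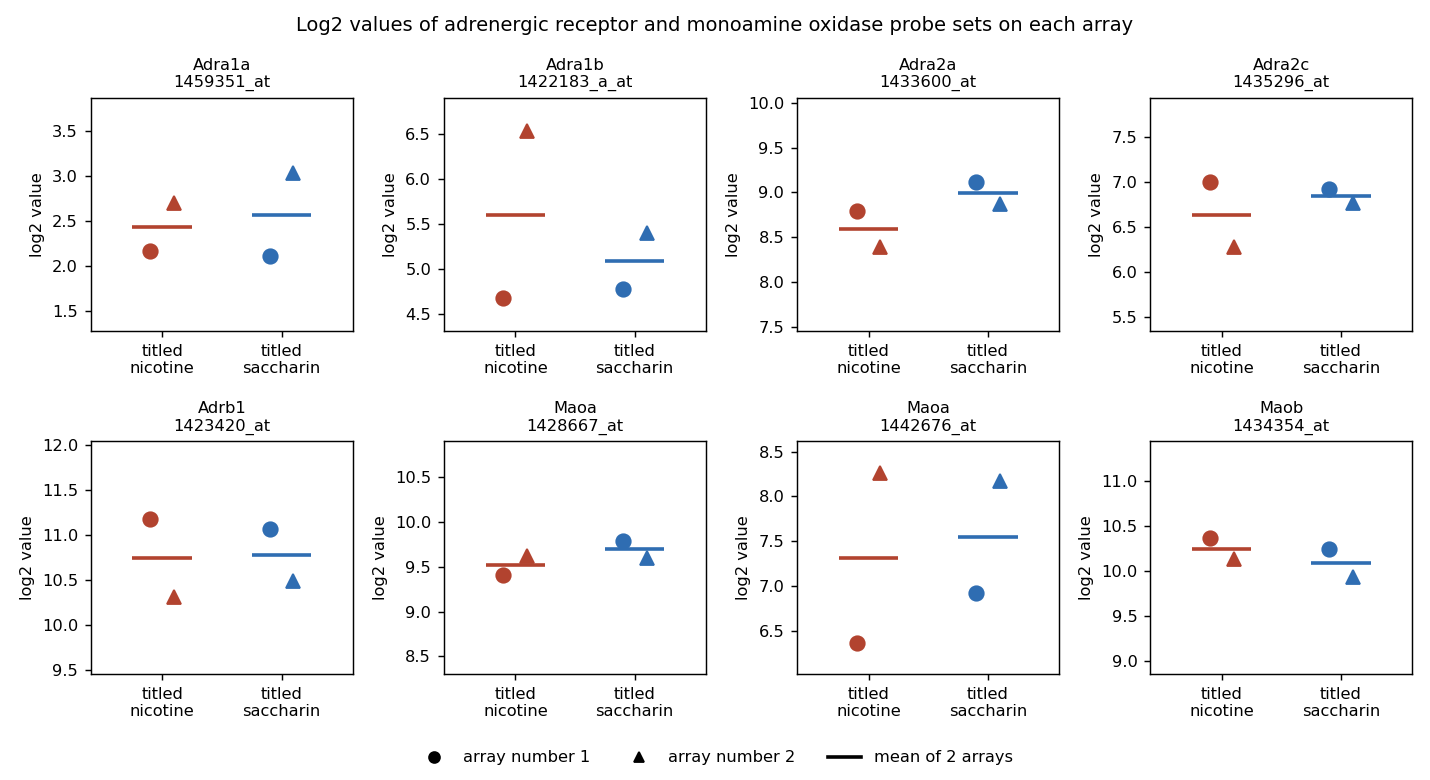
Log2 values (vertical axes, each spanning the same number of log2 units) of the 8 member probe sets with more than 2 distinct values. Circles are arrays numbered 1, triangles arrays numbered 2 and lines the mean of the 2 arrays of a title; both arrays titled nicotine lie below both arrays titled saccharin for Adra2a only.

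Adra2a encodes the alpha 2A receptor, the inhibitory receptor that serves as the release-limiting autoreceptor on noradrenergic terminals and also acts on cortical pyramidal neurons. Its brightest probe set, 1433600_at, read 8.80 and 8.39 on arrays 1 and 2 titled nicotine, against 9.11 and 8.88 on arrays 1 and 2 titled saccharin. The higher array titled nicotine thus stayed just under the lower array titled saccharin. The group means were 8.60 ± 0.286 in titled nicotine and 8.99 ± 0.167 in titled saccharin (SD, n = 2 each). The difference of -0.40 log2 (SE 0.217, 95% interval -1.22 to 0.42, limma adjusted p = 1) corresponds to 0.759 times the saccharin level, with an interval from 0.43 to 1.34 times. Within array number 1 it was -0.31 and within array number 2 it was -0.48, so both numbers had the titled nicotine array lower. Without titled nicotine 2 it was -0.20, and without titled nicotine 1 it was -0.60. It was the only one of the 14 member probe sets (7.14%) lower within both numbers, against 15.8% of all probe sets. The other Adra2a probe sets gave no second reading of this difference. One of them, 1433601_at, read 2.82 and 3.12 in titled nicotine and 2.82 on both arrays titled saccharin, and 1423022_at was at the lowest value on all arrays.

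Adra2c encodes the alpha 2C receptor, a second inhibitory subtype. Its brightest probe set, 1435296_at, read 7.00 and 6.28 on arrays 1 and 2 titled nicotine, against 6.92 and 6.76 on arrays 1 and 2 titled saccharin. The arrays titled nicotine enclosed those titled saccharin, and the difference of -0.20 log2 (SE 0.342, 95% interval -1.50 to 1.09, limma adjusted p = 1) was 0.076 within number 1 and -0.48 within number 2. Of its other probe sets, 1422335_at read 4.03 on both arrays titled nicotine, against 4.23 and 4.03 in titled saccharin, while 1457328_at and 1439762_x_at each held 1 value throughout. Adra2b, the remaining alpha 2 subtype and not among the members, read 2.18 and 2.36 in titled nicotine against 2.21 and 2.26 in titled saccharin at its brighter probe set, close to the lowest value.

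Adrb1 encodes the beta 1 receptor, the main beta subtype of cortical neurons. Its single probe set, 1423420_at, read 11.18 and 10.32 on arrays 1 and 2 titled nicotine, against 11.07 and 10.49 on arrays 1 and 2 titled saccharin. The groups overlapped, with both arrays numbered 1 above both arrays numbered 2. The difference between the titles was -0.033 log2 (SE 0.484, 95% interval -1.86 to 1.79, limma adjusted p = 1), at 0.11 within number 1 and -0.17 within number 2, and it turned to 0.020 with array medians set equal. The beta 3 receptor gene Adrb3 read 2.84 on both arrays titled nicotine, against 2.98 and 2.73 in titled saccharin. Its limma adjusted p was 1.

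The sequences before the start of Adra2a, Adra2c and Adrb1 are shown because these receptor genes were the ones lower on number 2 than on number 1 in both titles. They come from RefSeq on the build GRCm38.p6, run from 250 bases before to 50 bases after the gene start on the plus strand, and exist in the table for 5 of the 8 listed genes. Capitals mark TGACG, the core of the cyclic AMP response element, and TATAAA, the TATA box, each searched on both strands; the motifs do not overlap.
Adra2a, chr19:54045009-54045308: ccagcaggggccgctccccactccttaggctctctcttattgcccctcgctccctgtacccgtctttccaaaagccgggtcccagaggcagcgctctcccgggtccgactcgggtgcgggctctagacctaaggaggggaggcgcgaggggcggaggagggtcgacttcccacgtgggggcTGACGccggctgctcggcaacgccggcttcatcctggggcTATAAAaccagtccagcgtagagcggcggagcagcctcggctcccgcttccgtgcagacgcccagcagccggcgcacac
Adra2c, chr5:35278316-35278615: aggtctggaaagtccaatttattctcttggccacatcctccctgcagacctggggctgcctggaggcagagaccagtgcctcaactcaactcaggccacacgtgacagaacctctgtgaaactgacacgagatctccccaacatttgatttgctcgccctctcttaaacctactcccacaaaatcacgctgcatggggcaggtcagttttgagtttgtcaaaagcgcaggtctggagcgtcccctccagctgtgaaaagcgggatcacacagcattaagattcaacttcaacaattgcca
Adrb1, chr19:56721867-56722166: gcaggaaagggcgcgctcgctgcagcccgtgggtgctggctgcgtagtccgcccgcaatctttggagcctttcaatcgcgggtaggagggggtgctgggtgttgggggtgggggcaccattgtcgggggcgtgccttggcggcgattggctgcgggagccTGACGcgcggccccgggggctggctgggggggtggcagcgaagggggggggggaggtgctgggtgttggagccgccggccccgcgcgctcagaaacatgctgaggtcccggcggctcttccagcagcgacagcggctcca
In Adra2a TATAAA begins 29 bases and TGACG 69 bases before the start, and in Adrb1 TGACG begins 90 bases before it. Adra2c held neither string in this window. Of the 32851 promoter windows in the table, 20.8% held TGACG and 13.6% held TATAAA. G and C made up 68.7% of the Adra2a window, 51.3% of that of Adra2c and 72.3% of that of Adrb1, with a median of 52.7% over all windows. These matches are descriptions of the letters, and no measurement of binding belongs to the series.

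By mean values, Adra1b and the one varying Adra1a probe set, near the lowest value, differed by array number more than by title. Adra1b, which encodes the Gq-coupled alpha 1B receptor, read 4.67 and 6.54 on arrays 1 and 2 titled nicotine, against 4.78 and 5.40 on arrays 1 and 2 titled saccharin, at its single probe set 1422183_a_at. The array titled nicotine 2 stood above the other 3, and the array titled nicotine 1 was the lowest. The difference was 0.52 log2 (SE 0.914, 95% interval -2.94 to 3.97, limma adjusted p = 1), at -0.11 within number 1 and 1.14 within number 2. Without titled nicotine 2 it was -0.42. That array also held the highest value of Ttr, the main choroid plexus transcript, at 13.96, where titled nicotine 1 read 12.01 and titled saccharin 1 and 2 read 11.84 and 10.75. Folr1 was also highest on titled nicotine 2, at 3.83, but Sostdc1 and Clic6 were not. Sostdc1 read 5.34 on titled nicotine 2 and 5.36 on titled saccharin 1, and Clic6 read 4.36 on both. Both genes were lowest on titled saccharin 2, at 4.00 and 3.07. Over the 6 choroid plexus markers the mean log2 value was 4.74 and 5.31 in titled nicotine, against 4.82 and 4.19 in titled saccharin. Kcne2 and Kl were near the lowest value. The part of such tissue in the Adra1b value was not tested. Adra1a, for the alpha 1A receptor, was near the lowest value at 1459351_at, with 2.17 and 2.70 in titled nicotine and 2.10 and 3.03 in titled saccharin, and 1421659_at read 2.11 on all arrays. RefSeq also gives Adra1a as an older name of Adra1d, so the symbol alone does not settle which of these genes those probe sets report.

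Maoa and Maob, which lie next to each other on the X chromosome in the RefSeq annotation with 0 genes starting between them, had differences of opposite sign by title, and neither passed. Maob at 1434354_at read 10.37 and 10.13 on arrays 1 and 2 titled nicotine, against 10.24 and 9.93 on arrays 1 and 2 titled saccharin. The groups overlapped, but within each number the array titled nicotine was the higher. The means were 10.25 ± 0.168 in titled nicotine and 10.09 ± 0.220 in titled saccharin (SD, n = 2 each), a difference of 0.16 log2 (SE 0.182, 95% interval -0.52 to 0.85, limma adjusted p = 1). It was 0.13 within number 1, 0.20 within number 2 and 0.0072 with titled saccharin 2 left out. Being higher within both numbers held for 1 of 14 member probe sets (7.14%), against 11.7% of all probe sets. Over the 9 markers of astrocytes, cells in which Maob is abundant, the mean log2 value was 11.52 and 11.78 in titled nicotine, against 11.47 and 11.78 in titled saccharin. Within both numbers 2 of these markers were higher (22.2%) and 3 lower (33.3%). Of named genes at or above the median level, as 8 of the 9 markers are, 16.8% were higher and 30.6% lower. Gfap had the largest shift between the numbers, at 6.55 and 10.02 in titled nicotine and 6.84 and 9.79 in titled saccharin. Of the serotonin neuron markers, Slc6a4 and Fev stood at 2.15 and 2.10 on all arrays. The remaining one, Tph2, was below the median level of all probe sets and lower in titled nicotine within both numbers. It read 3.48 and 2.91 in titled nicotine, against 3.70 and 3.48 in titled saccharin. In bulk tissue fewer cells of a type and less RNA per cell cannot be told apart.

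Maoa was measured by 2 probe sets. The brighter one, 1428667_at, read 9.41 and 9.62 on arrays 1 and 2 titled nicotine, against 9.79 and 9.60 on arrays 1 and 2 titled saccharin. Its difference of -0.18 log2 (SE 0.130, 95% interval -0.67 to 0.31, limma adjusted p = 1) came from number 1, at -0.38, while number 2 gave 0.018. The other, 1442676_at, read 6.37 and 8.26 in titled nicotine, against 6.93 and 8.17 in titled saccharin, a difference of -0.23 log2 (SE 1.05, 95% interval -4.21 to 3.74, limma adjusted p = 1) with -0.56 within number 1 and 0.089 within number 2. Both probe sets had titled nicotine 1 as the lowest array. They did not share the shift between numbers: the arrays numbered 2 were 2.97 times those numbered 1 at 1442676_at and 1.01 times at 1428667_at.

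**Figure D2:**
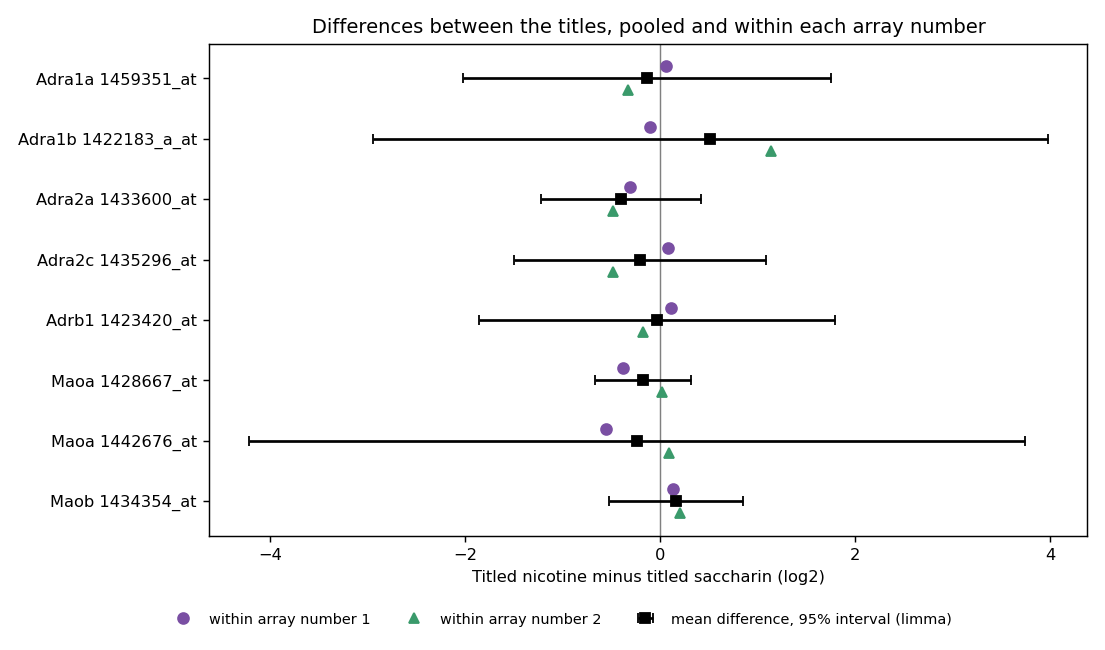
Difference between the titles in log2 units (horizontal axis, titled nicotine minus titled saccharin) for the 8 member probe sets with more than 2 distinct values. Squares are limma differences with 95% intervals, circles the difference within array number 1 and triangles within array number 2; every interval covers 0, and only Adra2a and Maob have both numbers on one side.

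The shift between the array numbers was larger than the difference between the titles in 6 of the 8 probe sets with more than 2 distinct values. The same count is not given over all probe sets, but their medians went the same way. Over all probe sets the median absolute shift was 0.10 log2 and the median absolute difference 0.039. Over the 14 member probe sets these medians were 0.21 and 0.14. Among the 14 probe sets, 4 were lower on number 2 in both titles, those of Adra2a, Adra2c, Adrb1 and Maob, where 29.0% of all probe sets were, and 3 were higher in both, those of Adra1a, Adra1b and the second Maoa probe set, where 18.9% of all probe sets were. For Adrb1 number 2 minus number 1 was -0.86 log2 in titled nicotine and -0.58 in titled saccharin. For Adra2a the shift was -0.40 in titled nicotine and -0.24 in titled saccharin, and for Maob it was -0.24 in titled nicotine and -0.31 in titled saccharin. For Adra1b it was 1.87 in titled nicotine and 0.62 in titled saccharin, and for Maoa at 1442676_at 1.89 in titled nicotine and 1.25 in titled saccharin. These 2 probe sets had a mean at least 2-fold higher on number 2 (14.3% of the members), against 6.66% of all probe sets, and 0 of 14 had a mean at least 2-fold lower, against 3.57%. The gap between the 3′ and 5′ control probe sets of Actb, which widens when RNA is degraded or labelled short, moved with the number, at 2.39 and 1.25 on arrays 1 and 2 titled nicotine and 2.38 and 1.73 on arrays 1 and 2 titled saccharin. Its part in the members' shifts was not tested.

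**Figure D3:**
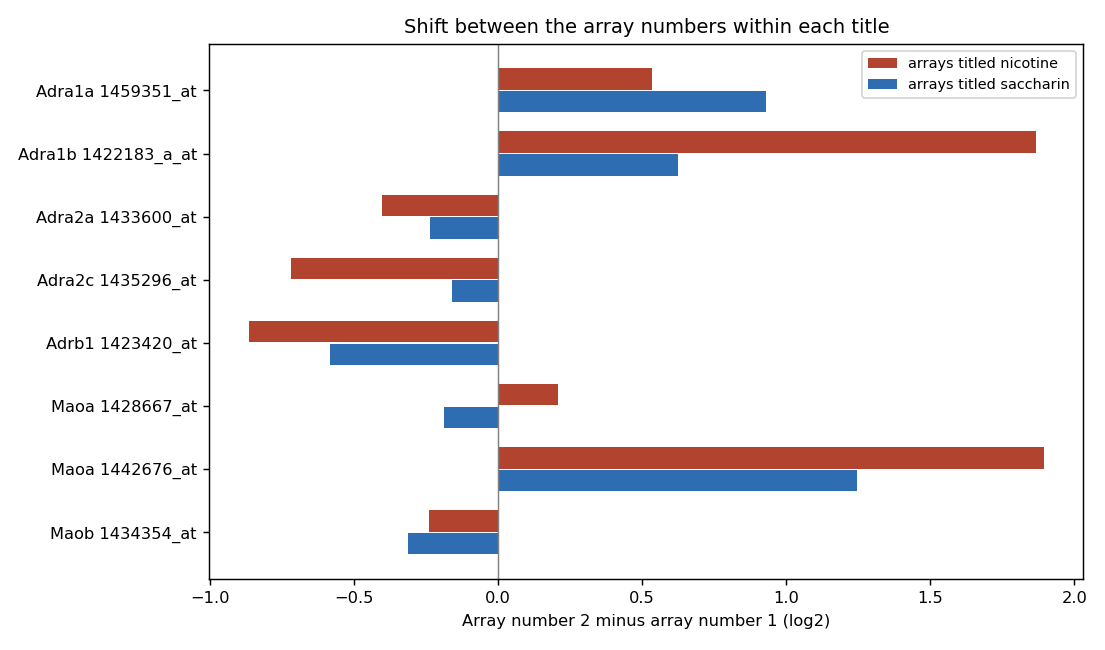
Shift from array number 1 to array number 2 in log2 units (horizontal axis) within each title, for the 8 member probe sets with more than 2 distinct values. Bars show single differences between 2 arrays; the bars of both titles point the same way for every probe set except the brighter one of Maoa.

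In the authors' deposited table no member had an adjusted p under 0.05, and all stood at 1. Its statistic and p correspond to 8.37 total degrees of freedom, against 2.32 in the fit here. Its mean levels lay outside the range of the 4 arrays for 9 of the 14 member probe sets, so they are not means of these 4 columns as deposited. Whether it used further arrays or another processing of these, and which group was subtracted, is not given in the sources used here. Adra2a at 1433600_at had a log2 fold change of 0.40 in the authors' deposited table (unadjusted p = 0.0968 from the authors' limma fit), the smallest p of the members there, where the difference by title was -0.40. Adra2c at 1422335_at followed in that table with -0.028 (unadjusted p = 0.142 from the authors' limma fit). Maob had -0.17 in the authors' deposited table and 0.16 by title, Adra1b -0.42 and 0.52, and the brighter Maoa probe set 0.10 and -0.18. Adrb1 had 0.11 in the authors' deposited table and -0.033 by title. Adra2c at 1435296_at and Maoa at 1442676_at were negative in both, with -0.052 and -0.10 in the authors' deposited table. Over all probe sets the authors' deposited table ran opposite to the titles (Pearson's r = -0.871 between the 2 sets of differences, over probe sets that are not independent), so opposite signs are not confined to the members. Since the table may include these arrays, this describes its direction only, and the values are set side by side.

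Of the rest of the pathway, 55 genes in 5 lists were read at the brightest probe set of each, and none passed limma at an adjusted p under 0.05, against 0.0% of 20737 named genes. Of these 55, 20 were lower (36.4%) and 7 higher (12.7%) in titled nicotine within both array numbers, against 19.3% lower and 11.7% higher of the named genes. Those at or above the median level of all probe sets numbered 47, of which 42.6% were lower and 14.9% higher within both, against 30.6% and 16.8% of all named genes at that level. With array medians set equal the balance turned over, to 13 lower and 19 higher of the 55, and 27.7% of the 47 were lower and 29.8% higher, against 18.9% and 28.9% of named genes at that level. In the list of synthesis, storage and reuptake, 9 of 9 genes were measured, 2 were higher within both numbers and 0 lower, and the median was 0.039 log2. The 2 higher were Dbh, whose probe sets are described below, and Pnmt, by 0.036 within number 1 and 0.060 within number 2. The other Pnmt probe sets were at the lowest value on all arrays. With array medians set equal, 6 of the 9 were higher within both and 0 lower, when 56.8% of all probe sets were higher within both. That step alone makes a probe set with a single value on all arrays, as that of Th, higher within both numbers. It also lifts Gch1, tied at 2.13 within number 2 as deposited. Qdpr, which regenerates the biopterin cofactor, differed by 0.023 log2, Pts, an enzyme of biopterin synthesis, by 0.039, and Ddc, the decarboxylase that makes dopamine, by 0.097. Slc18a2, the vesicular monoamine transporter gene, added after its values were seen, read 3.62 and 5.67 in titled nicotine, against 3.73 and 3.81 in titled saccharin. The array titled nicotine 2, also the highest for Adra1b, stood above the other 3. Markers of noradrenergic cell bodies were near the lowest value. Th stood at 2.14 and Phox2a at 2.10 on all arrays, and the reuptake transporter gene Slc6a2 read 2.80 and 2.88 in titled nicotine, against 2.91 and 2.76 in titled saccharin. Dbh, the enzyme that makes noradrenaline, read 7.75 and 7.31 in titled nicotine, against 7.42 and 7.09 in titled saccharin, at 1459848_x_at, a type of probe set whose probes can also match other transcripts, while its other probe sets read at most 2.33. The cortical neuron markers, 8 of 8 of which were at or above the median level of all probe sets, had a mean log2 value of 13.29 and 13.38 in titled nicotine and 13.32 on both arrays titled saccharin. All 7 oligodendrocyte, 7 microglia and 8 vascular markers also reached that level, as did 6 of 8 markers of striatal projection neurons. Of the 7 oligodendrocyte markers, 4 (57.1%) were higher in titled nicotine within both numbers and 0 lower, also with quantile normalization and with array medians set equal. Of named genes at the median level, 16.8% were higher and 30.6% lower within both. With quantile normalization these shares were 22.4% and 26.7%, and with array medians set equal 28.9% and 18.9%. The mean log2 value of these markers was 13.05 and 13.22 in titled nicotine, against 13.05 and 12.96 in titled saccharin. Their median difference was 0.11, where Maob differed by 0.16. From number 1 to number 2, the marker mean and Maob both fell in titled saccharin, while in titled nicotine the marker mean rose and Maob fell. The part of oligodendrocytes in the Maob value was not tested.

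Other breakdown and uptake genes, 12 of 12 measured, had 0 higher and 3 lower (25%) within both numbers and a median of -0.024 log2. Of all named genes 11.7% were higher and 19.3% lower. Of those that reach the median level, as 9 of the 12 do, 16.8% were higher and 30.6% lower. With array medians set equal the list counts turned over, to 5 higher (41.7%) and 2 lower (16.7%). Of named genes at the median level 28.9% were then higher and 18.9% lower, and of all probe sets 56.8% and 10.1%. The aldehyde reductase genes Akr1a1 and Akr1b3 differed by -0.048 and -0.13, and Hnmt, which methylates histamine, by 0.0026. Receptor coupling and cyclic AMP or phospholipase C genes, 21 of 21 measured, had a median of -0.067 log2, with 13 lower (61.9%) and 2 higher (9.52%) in titled nicotine within both numbers. Of named genes that reach the median level, as all 21 do, 30.6% were lower and 16.8% higher within both, with a median of -0.029. With array medians set equal the counts were 8 lower and 4 higher and the median was -0.014, while 18.9% of named genes at that level were then lower within both numbers and their median was 0.025. These counts rest on the brightest probe set of each gene alone. As deposited, a further probe set of each of Plcb1, Plcb4, Prkca and Gnai2, all counted lower, was higher in titled nicotine within both numbers. Some further probe sets of Gnaq, Gna11 and Adcy9 were lower within both numbers, like their brightest ones. Gnas, the Gs subunit gene, differed by -0.036 log2, Gnai1, a Gi subunit gene, by -0.044, and Prkar1a, a regulatory subunit gene of protein kinase A, by 0.090. The list of receptor desensitisation genes, 10 of 10 measured, had 4 lower (40%) and 3 higher (30%) within both numbers and a median of -0.021. All 10 reach the median level, where 30.6% of named genes were lower and 16.8% higher. With array medians set equal the list had 3 lower and 4 higher, against 18.9% and 28.9% of named genes at that level. In this list, Rgs4 and Rgs2, whose products shorten G protein signals, differed by 0.10 and -0.12, and Spred2, an inhibitor of Ras signalling, by 0.15. The medians of the breakdown, desensitisation and other receptor lists turned positive when arrays were centred, a step that moved the median of all probe sets to 0.054.

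**Figure D4:**
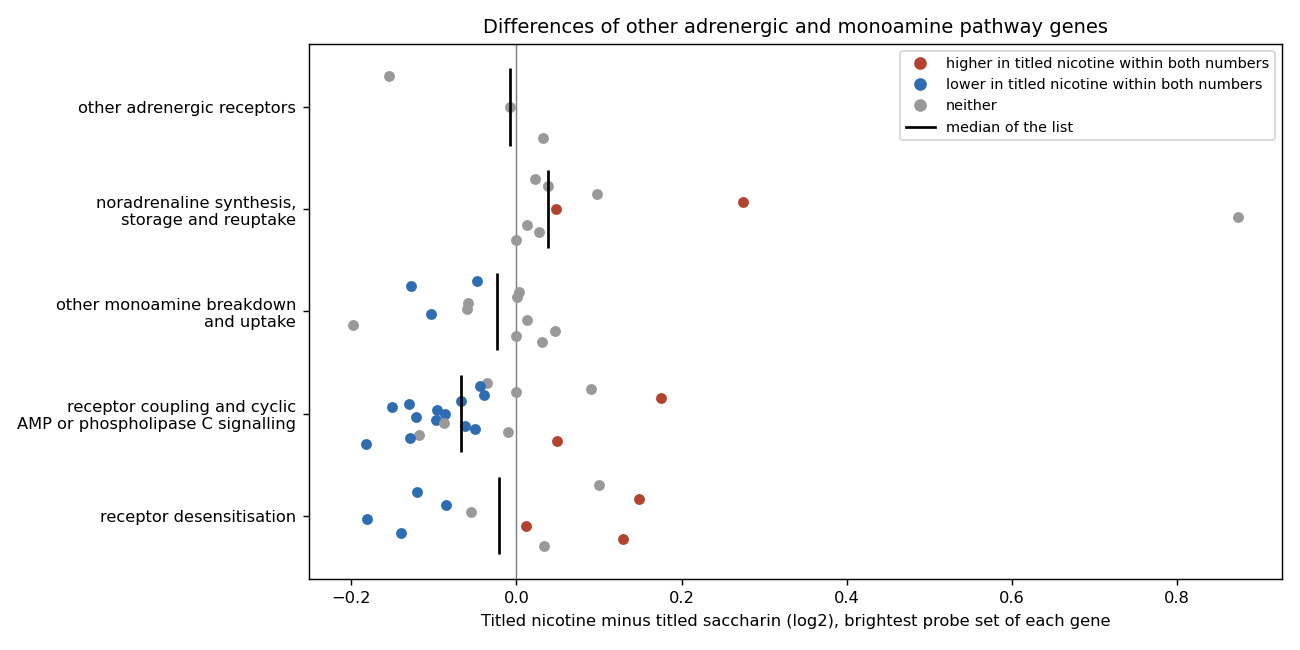
Difference between the titles in log2 units (horizontal axis) of each gene of 5 pathway lists at its brightest probe set, with black lines at the list medians. Red points were higher and blue points lower in titled nicotine within both array numbers; the coupling list holds 13 of the 20 points lower within both numbers, and the rightmost point is Slc18a2 at 0.87.

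Profiles most like those of the members were found by the Euclidean distance between log2 profiles over the 4 arrays, each centred on its own mean, among named probe sets whose mean reached the median level. Nearest to Adra2a were Zfp160, Nrp2 and Nol7, at distances of 0.048, 0.051 and 0.054 log2. Nearest to Adrb1 were Hist2h2be, Hnrnph3 and Spice1, at 0.012, 0.015 and 0.016, and Maob lay nearest to Apba1, at 0.013. The brighter Maoa probe set was nearest to Prkcd, at 0.029, Adra2c to Akap5, at 0.026, and Adra1b to Cacnb2, at 0.081. With 4 arrays many profiles lie this close, and the distances are a description only.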

How the data were processed

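Each array was assigned to a group by its title. Per the labels' protocols, RNA of 4 animals was pooled, 5 pools per group and 20 subjects are stated, and biotin-labelled RNA was hybridised to Affymetrix arrays. The authors deposited log2 expression values per probe set; the scale was read from the values, and how background and arrays were adjusted is not given in the sources used here. Per the file headers, the authors' deposited table holds a log2 fold change and mean log2 level, a p-value with its adjusted form, and a score from the moderated statistic. The submitters' processing notes name limma with no version.

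Titles were compared in R 4.3.3 by limma 3.58.1, with lmFit and eBayes, on the values of all 4 arrays as deposited, with no filter or block, Benjamini-Hochberg adjustment over 45101 probe sets and a threshold of 0.05. The number of arrays limits the precision: the fit had 2.32 total degrees of freedom. The code was tested on simulated data. The labels give no meaning for array numbers 1 and 2, which were handled like a batch because values split by them, with differences given within each. The members and lists were chosen with earlier results of these data known. All members are named. From each pathway list the 3 genes with the highest mean are named, with the other adrenergic receptors, and up to 3 genes of nearest profile per member; some genes that this rule selects are not reported here. Further list genes are named where their probe sets bear on a count. Equal values were judged to 6 decimals. Alternatives were quantile normalization, centring, a filter at the median level, a trended robust variance, the number as a block, other probe sets, the authors' deposited comparison and leaving out each array. Array medians were 3.88 to 4.09.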

Additional observations from a re-analysis of the deposited data

How the results depend on the processing

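In limma no member probe set had an adjusted p under 0.05 under any of the 9 alternatives run as fits (the filter left 8 member probe sets; at an unadjusted p under 0.05 there was 1 without titled nicotine 1 and 1 without titled saccharin 2, both with a group of tied values), and the count over all probe sets, 1 in the fit as designed, was 0 with quantile normalization, centring, the filter, the trend and robust model and the array number as a replicate block, and ranged between 0 and 379 with 1 array left out (379 without titled nicotine 1, 277 without titled saccharin 1, 0 without titled nicotine 2 and without titled saccharin 2). Shifts of the 2 titles between the numbers correlated at 0.804 across probe sets; nothing in the labels says that a number marks a shared batch. With the number as a block, Adra2a stayed at -0.40 (SE 0.073, limma adjusted p = 1) and Maob at 0.16 (SE 0.032, limma adjusted p = 1). Without 1 array Adra2a ranged between -0.60 and -0.20, Maob between 0.0072 and 0.32 and the brighter Maoa probe set between -0.28 and -0.076. Signs turned for Adra1a at 1459351_at without titled nicotine 1 (0.13) and without titled saccharin 2 (0.33), Adra1b without titled nicotine 2 (-0.42), Adra2c at 1435296_at without titled nicotine 2 (0.16), Adrb1 with centring (0.020), without titled nicotine 2 (0.40) and without titled saccharin 1 (0.26), and Maoa at 1442676_at without titled nicotine 1 (0.71) and without titled saccharin 2 (0.39). Each such fit mixes the title with the number. At the other end of these ranges stood 1.45 for Adra1b, -0.56 for Adra2c and -0.47 for Adrb1 without titled nicotine 1, and -1.18 for Maoa at 1442676_at without titled nicotine 2. Probe sets higher in titled nicotine within both numbers were 6 of 14 with centring (42.9%, when 56.8% of all probe sets were), against 1 as designed (7.14%, when 11.7% were). These 6 include the 4 that held a single value on all arrays, which centring alone set at 0.0033 within number 1 and 0.10 within number 2. They also include 1433601_at, tied at 2.82 within number 1 as deposited. Those lower within both were 2 with quantile normalization, against 1, and the added one, 1457328_at, also held a single value. Signal below the median level limits both Adra1a probe sets and 4 further ones.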
